A study of Canis lupus familiaris with 15 samples.

Results

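The proteasome genes were followed in primary osteosarcomas of 15 dogs. The members were the genes whose symbol in the platform annotation begins with PSMA, PSMB, PSMC, PSMD, PSME, PSMF or PSMG, without the immunoproteasome genes PSMB8, PSMB9 and PSMB10. Each gene was represented by the probeset with the highest mean among those annotated to that gene alone. The rule found 41 of the 15115 genes named on the array. Of these, 39 encode proteasome subunits, activators, an inhibitor or assembly chaperones. The other two, PSMC3IP and PSME3IP1, share the prefix but are not proteasome subunits. PSMC3IP is a meiotic recombination factor and PSME3IP1 a protein that binds PSME3. Of 45 proteasome genes listed by role, 6 had no probeset of their own and were not measured here: PSMB7, PSMC1, PSMD1, PSMD4, PSMD5 and PSMG4.

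Each tumor was taken at limb amputation before any chemotherapy, snap frozen, and hybridised to 1 Affymetrix Canine 2.0 array. After surgery the dogs received doxorubicin, a platinum drug or both. The DFI < 100 cohort held 8 dogs whose disease free interval was under 100 days, aged 4.4 to 10.8 years (mean 7.8). These were 3 Greyhounds, 1 mixed breed dog, a Rottweiler, a Labrador Retriever, a Doberman and a Golden Retriever. The DFI > 300 cohort held 7 dogs with an interval over 300 days, aged 7.1 to 13.4 years (mean 10.5). These were 1 Greyhound, 4 mixed breed dogs, a Golden Retriever and a Rottweiler. Giant cell tumors made up 3 tumors of the DFI < 100 cohort and none of the DFI > 300 cohort, while osteoblastic tumors made up 5 and 6. The remaining tumor of the DFI > 300 cohort, from dog 188084, was poorly differentiated. Age, breed, subtype and cohort therefore could not be fully told apart.

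The proteasome is the protease that degrades proteins tagged with ubiquitin. Its core is a barrel of stacked rings, with outer alpha rings that gate the entrance and inner beta rings that carry the catalytic sites. A regulatory cap binds the tagged protein, removes the ubiquitin, unfolds the chain with a ring of ATPases and feeds it into the core. Other activators can open the barrel without the cap, and dedicated chaperones assemble the core and the cap. Cells that secrete much matrix protein, such as osteoblasts, also use it to clear misfolded chains.

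Median signal per array lay between 46.6 and 53.9 in the DFI < 100 cohort and between 48.6 and 54.7 in the DFI > 300 cohort. RNA integrity, read as how far 3 prime controls outshine their 5 prime partners on the log2 scale, averaged 2.04 ± 0.49 in the DFI < 100 cohort and 1.90 ± 0.54 in the DFI > 300 cohort (SD, n = 8 and 7). Of 8 measured osteoblast markers, 7 lay above the level of the reporter controls (log2 6.79, the 95th percentile of 64 probesets for reporter sequences), and BGLAP did not. None of 5 T cell and 3 B and plasma cell markers lay above it, against 5 of 5 macrophage markers, 3 of 4 osteoclast, 3 of 5 endothelial and 1 of 4 skeletal muscle markers. The log2 of the summed signals of 3 cycling markers (TOP2A, CDC20 and AURKB) ranged from 10.4 to 12.6 in the DFI < 100 cohort. In the DFI > 300 cohort it ranged from 9.79 to 12.9. In these bulk samples, fewer cells of a type and less RNA per cell cannot be told apart.

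Most proteasome genes were measured well above the reporter level, and the cohorts differed little, with wide intervals. Of the 41 genes, 39 lay above that level. By sign alone, 29 of 41 averaged higher in the DFI < 100 cohort and 12 lower. Among the 39 above the reporter level, 29 averaged higher and 10 lower. Of all 42860 probesets 50.9% had a higher mean, and of the 6448 named genes above the reporter level 52.7%. The median difference over the 41 genes (DFI < 100 minus DFI > 300, on the log2 scale throughout) was 0.09, and 0.10 over those 39. It was 0.01 over all probesets and 0.02 over all named genes above the reporter level. None of the 41 passed an adjusted p of 0.05 in limma, nor did any of the 42860 probesets (0%), and the smallest adjusted p was 0.999. At an unadjusted p under 0.05 there were 2 of 41, PSMD3 and PSMA3, both higher in the DFI < 100 cohort. The same rule called 3.68% of all probesets (1.83% higher and 1.85% lower) and 3.75% of the genes above the reporter level, so that the count of members is near the background. The values of the cohorts overlapped for all 41 genes. All 3 cycling markers also averaged higher in the DFI < 100 cohort, none past an unadjusted p of 0.05, with a median difference of 0.35, and their part in the result was not tested. The number of higher genes was 24 without dog 184844, 24 without dog 190030 and 33 without dog 173175, and the median difference was 0.05 without dog 180119 and 0.16 without dog 193231. In osteoblastic tumors only, the number of higher genes was 33 and the median 0.21.

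**Figure D1:**
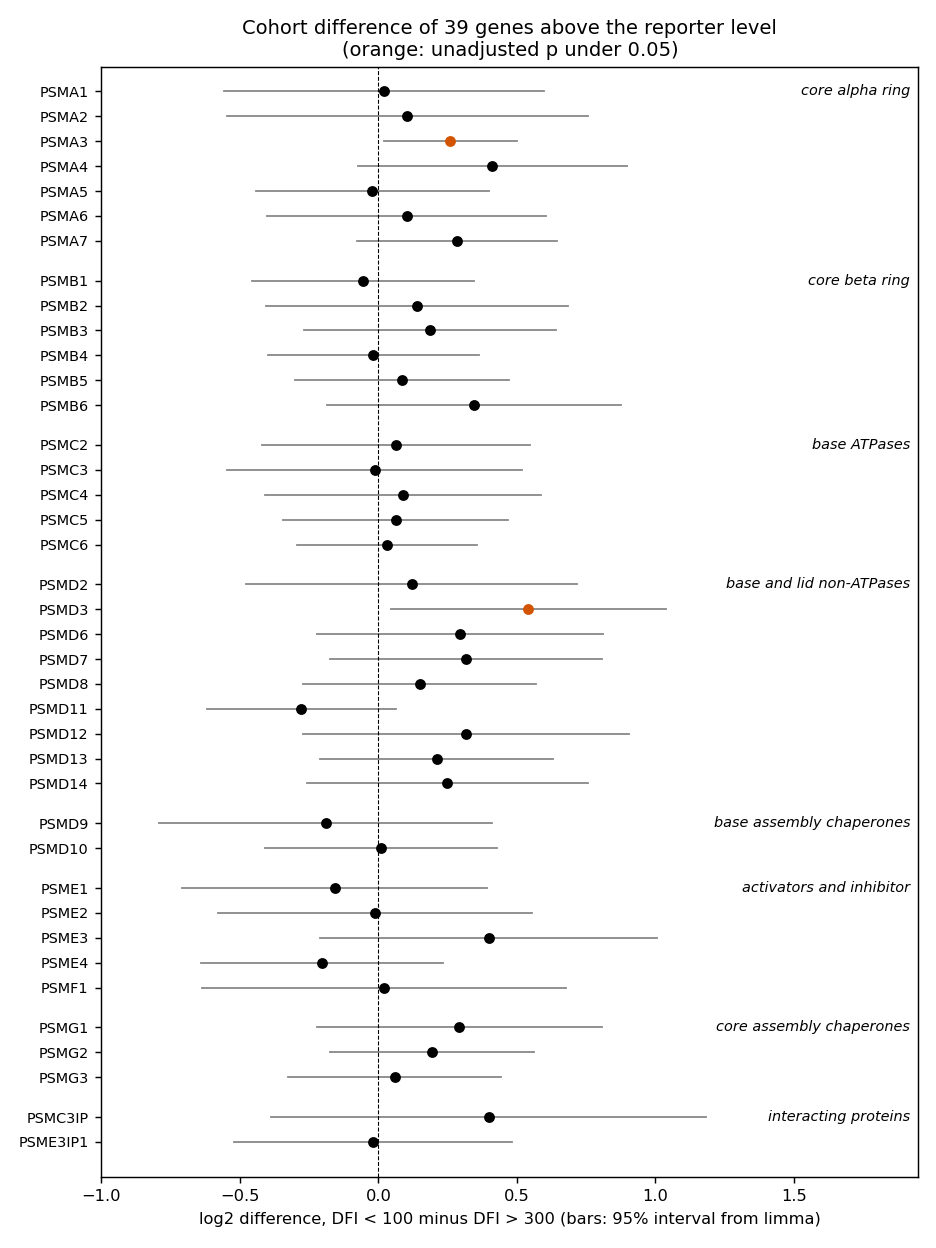
Difference of the cohort means (log2, DFI < 100 minus DFI > 300) for the 39 proteasome genes above the reporter level, ordered by role from top to bottom, with the 95% interval from limma as a bar. The points in orange, PSMA3 and PSMD3, are the 2 with an unadjusted p under 0.05, and the intervals of the others include 0.

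The core alpha ring is built from the products of PSMA1 to PSMA7, with PSMA8 standing in for PSMA7 in the mammalian testis. Of these 8 genes, 6 averaged higher in the DFI < 100 cohort, and the median difference was 0.10. Both values include PSMA8, which was not above the reporter level. The median was -0.00487 without dog 190030 and 0.37 in osteoblastic tumors only.

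PSMA3 gave the narrowest interval of the alpha ring. Its log2 signal ran from 12.08 to 12.71 with a median of 12.46 in the DFI < 100 cohort, against 12.05 to 12.41 with a median of 12.14 in the DFI > 300 cohort. Of these, 5 of the 8 DFI < 100 dogs lay above every DFI > 300 dog, while dog 204714 of the DFI < 100 cohort (12.08) was down among the lowest of the other cohort. The means were 12.43 ± 0.18 and 12.17 ± 0.12 (SD, n = 8 and 7), a difference of 0.26 with a standard error of 0.11. The unadjusted p in limma was 0.0362 (adjusted p = 0.999), and 0.00679 in the methods' t-test, the unpaired 2-tailed test with equal variances. The difference kept its sign in all 26 alternatives, between 0.22 and 0.38, but passed an unadjusted p of 0.05 in only 12 of them. It passed without dog 173175, 204714, 208911, 188084 or 193231, and did not without any of the other 10 dogs. Another probeset of PSMA3 above the reporter level had a difference of 0.22 ± 0.16 (SE), with an unadjusted limma p of 0.198. With the probesets of PSMA3 averaged, the call was lost.

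PSMA4 differed more than PSMA3 but with a wider spread. It ran from 10.60 to 11.87 with a median of 10.94 in the DFI < 100 cohort, and from 10.31 to 11.57 with a median of 10.58 in the DFI > 300 cohort. The 5 lowest dogs of the DFI > 300 cohort lay below every dog of the DFI < 100 cohort, and dog 180223 of the DFI > 300 cohort lay second to dog 184844. The means were 11.12 ± 0.45 and 10.71 ± 0.43, a difference of 0.41 ± 0.23 (SE), with an unadjusted limma p of 0.091.

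PSMA7 ran from 11.99 to 12.76 (median 12.42) in the DFI < 100 cohort and from 11.51 to 12.62 (median 12.10) in the DFI > 300 cohort. The cohorts overlapped over most of this range. Means of 12.39 ± 0.25 and 12.11 ± 0.36 gave a difference of 0.28 ± 0.17 (SE), with a limma p of 0.116.

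The remaining alpha subunits measured above the reporter level, PSMA1, PSMA2, PSMA5 and PSMA6, had differences of 0.02, 0.10, -0.02 and 0.10, none past the test. The single probeset of PSMA1 is of a type that can cross-hybridise with other transcripts, so its value is uncertain. PSMA2, at a standard deviation of 0.59 over the 15 dogs, was among the more variable members. The probesets of PSMA5 above the reporter level did not share a sign. PSMA8 was not above the reporter level, with log2 values from -7.00 to 2.50 (median 0.75) in the DFI < 100 cohort and from -6.62 to 2.18 (median 1.496) in the DFI > 300 cohort. Its means of 0.01 ± 2.95 and 0.29 ± 3.10 gave a difference of -0.28 ± 1.46 (SE), with a limma p of 0.851, and values at that level carry no order.

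**Figure D2:**
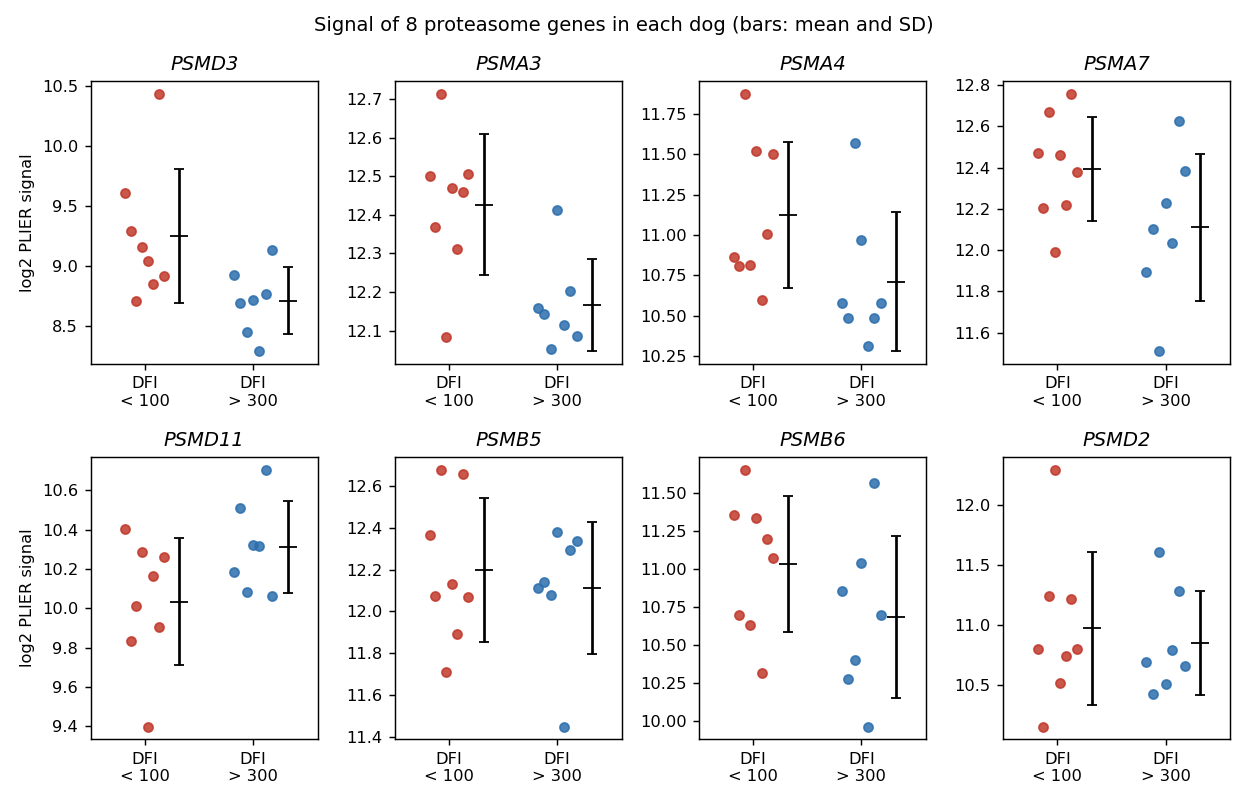
Log2 PLIER signal of 8 proteasome genes in each dog, 1 panel per gene, with the DFI < 100 cohort in red at the left and the DFI > 300 cohort in blue at the right, and with bars for mean and SD. In each panel the cohorts overlap, for PSMA3 between 12.08 and 12.41, and dogs 204714 and 212759 are the highest red points for PSMD2 (12.30) and PSMD3 (10.43).

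The beta ring carries the catalytic activity. Of its 7 measured genes, 4 averaged higher in the DFI < 100 cohort, with a median difference of 0.09 and none past the test. The count and median include PSMB11, which was not above the reporter level. Without dog 190030 the median was -0.03.

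PSMB5, the chymotrypsin-like catalytic subunit and the site blocked by bortezomib, ran from 11.71 to 12.68 (median 12.10) in the DFI < 100 cohort and from 11.45 to 12.38 (median 12.14) in the DFI > 300 cohort. The cohorts overlapped, with 2 DFI < 100 dogs above every DFI > 300 dog and dog 190030 of the DFI > 300 cohort below all others. Means of 12.20 ± 0.35 and 12.11 ± 0.31 gave a difference of 0.09 ± 0.18 (SE), with a 95% interval of -0.30 to 0.47 and a limma p of 0.645.

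PSMB6, the caspase-like catalytic subunit, ran from 10.31 to 11.65 (median 11.13) in the DFI < 100 cohort and from 9.96 to 11.57 (median 10.69) in the DFI > 300 cohort. Again the overlap was wide, with 1 DFI < 100 dog above and 2 DFI > 300 dogs below all dogs of the other cohort. Means of 11.03 ± 0.45 and 10.68 ± 0.53 gave a difference of 0.35 ± 0.25 (SE), with a limma p of 0.186. The third catalytic gene, PSMB7, has no probeset of its own.

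Among the structural beta subunits, PSMB1, PSMB2, PSMB3 and PSMB4 had differences of -0.06, 0.14, 0.19 and -0.02. PSMB11, the beta subunit of thymic cortex cells, was not above the reporter level. It ran from 1.42 to 2.53 (median 2.05) in the DFI < 100 cohort and from 1.86 to 2.94 (median 2.32) in the DFI > 300 cohort. Its means of 2.06 ± 0.39 and 2.36 ± 0.32 gave a difference of -0.29 ± 0.19 (SE), with a limma p of 0.152.

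The base of the cap holds a ring of ATPases that unfold the substrate and open the core. Of the 5 measured ATPase genes, 4 averaged higher in the DFI < 100 cohort, but all differences lay between -0.01 and 0.09 and their median was 0.06. PSMC2, PSMC4, PSMC5 and PSMC6 had positive differences and PSMC3 had a difference of -0.01, with standard errors of 0.15 to 0.25. The probesets of PSMC3 above the reporter level did not share a sign. The median of the ATPases was -0.03 without dog 184844 and 0.17 in osteoblastic tumors only.

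The other cap subunits, which bind ubiquitin chains, cut them off and hold the lid together, showed the largest median difference among the groups of more than 3 genes. Of 9 genes, 8 averaged higher in the DFI < 100 cohort, with a median of 0.25, and the exception was PSMD11. Their median lay between 0.19 and 0.31 with each dog left out in turn.

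PSMD3, a scaffold subunit of the lid, had the smallest p among the members. It ran from 8.70 to 10.43 with a median of 9.10 in the DFI < 100 cohort, and from 8.29 to 9.13 with a median of 8.71 in the DFI > 300 cohort. Of the DFI < 100 dogs, 4 lay above every DFI > 300 dog, and 3 DFI > 300 dogs lay below every DFI < 100 dog. Means of 9.25 ± 0.56 and 8.71 ± 0.28 gave a difference of 0.54 with a standard error of 0.23 and a 95% interval of 0.05 to 1.04. The unadjusted limma p was 0.0341 (adjusted p = 0.999), and 0.0368 in the methods' t-test. Without dog 212759, the highest, the difference was 0.37 with an unadjusted limma p of 0.046. The call was lost without dog 153599, 180223 or 190030, where limma's unadjusted p was 0.063, 0.064 and 0.0716. Of the 26 alternatives, 21 kept it, and it was also lost in osteoblastic tumors only (difference 0.57) and with the probesets of PSMD3 averaged (difference 0.44).

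PSMD11, a lid subunit tied to proteasome assembly in human stem cells, was the member whose mean was lower in the DFI < 100 cohort with the smallest p. It ran from 9.40 to 10.40 (median 10.09) in the DFI < 100 cohort and from 10.06 to 10.70 (median 10.32) in the DFI > 300 cohort. Of the DFI < 100 dogs, 4 lay below every DFI > 300 dog, and 2 DFI > 300 dogs lay above every DFI < 100 dog. Means of 10.03 ± 0.32 and 10.31 ± 0.23 gave a difference of -0.28 ± 0.16 (SE), with a limma p of 0.105.

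PSMD2, a large scaffold of the base, where ubiquitin receptors and shuttle proteins dock, had a difference of 0.12 ± 0.28 (SE) with a limma p of 0.674. Dog 204714 stood at 12.30, and the next dog at 11.60. PSMD14, the subunit that removes the ubiquitin chain, and PSMD7, its partner, had differences of 0.25 and 0.32. PSMD6, PSMD8, PSMD12 and PSMD13, further lid subunits, had differences of 0.30, 0.15, 0.32 and 0.21, none past the test.

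The base assembly chaperones PSMD9 and PSMD10 had differences of -0.19 and 0.01, and PSMD10 had probesets of opposite sign. All 3 measured core assembly chaperones averaged higher in the DFI < 100 cohort, PSMG1 by 0.29, PSMG2 by 0.19 and PSMG3 by 0.06. None passed the test.

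Of the activators and the inhibitor, 2 of 5 averaged higher in the DFI < 100 cohort, and the median difference was -0.01. PSME3, the nuclear activator linked to breakdown of proteins without ubiquitin, ran from 7.97 to 9.80 (median 8.93) in the DFI < 100 cohort and from 7.55 to 9.09 (median 8.81) in the DFI > 300 cohort. Of the DFI < 100 dogs, 3 lay above every DFI > 300 dog. Means of 8.90 ± 0.54 and 8.50 ± 0.60 gave a difference of 0.40 ± 0.28 (SE), with a limma p of 0.182.

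PSME1 and PSME2 form the interferon inducible activator. PSME1 ran from 9.83 to 10.93 (median 10.15) in the DFI < 100 cohort and from 9.18 to 10.77 (median 10.64) in the DFI > 300 cohort, where dog 193231 was lowest. The other 6 DFI > 300 dogs lay above 5 of the 8 DFI < 100 dogs. Means of 10.26 ± 0.45 and 10.42 ± 0.56 gave a difference of -0.16 ± 0.26 (SE), with a limma p of 0.552.

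PSME2 ran from 9.05 to 10.50 (median 9.89) in the DFI < 100 cohort and from 8.93 to 10.62 (median 10.09) in the DFI > 300 cohort. Means of 9.86 ± 0.49 and 9.87 ± 0.56 gave a difference of -0.01 ± 0.27 (SE), with a limma p of 0.961. The ranges of the cohorts overlapped widely. PSME4, another nuclear activator, had a difference of -0.20 and PSMF1, the inhibitor, of 0.02, and PSME4 had probesets of opposite sign. The standard deviation of PSMF1 over the 15 dogs, 0.59, was the largest among the proteasome genes above the reporter level. PSMC3IP varied more, at 0.75, and had a difference of 0.40 ± 0.37 (SE). PSMF1 and PSMC3IP lay near the reporter level of 6.79, with means of 7.17 and 7.19. Some dogs lay below that level, down to 6.23 and 5.87, so these spreads are uncertain.

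Some dogs recurred as the highest or lowest of the 15 for many of the genes. Because the genes tend to move together, these counts are not independent. Over the 37 subunit and chaperone genes above the reporter level, dog 184844 of the DFI < 100 cohort was the highest of the 15 dogs for 12 genes and the lowest for none, and it was highest for 8.19% of all genes above that level. It was highest for 5 of the 7 alpha ring genes. Dog 212759 of the DFI < 100 cohort was highest for 7 of the 37, beside 6.64% of all genes.

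At the low end, dog 173175 of the DFI < 100 cohort and dog 190030 of the DFI > 300 cohort were each lowest for 10 of the 37 genes, beside 13.7% and 15.0% of all genes. Of these, 7 of 14 cap genes were lowest in dog 173175 and 4 of 14 in dog 190030, while 2 and 5 of the 13 core genes were. These arrays were low over all genes above the reporter level, with a median signal relative to the 15-dog mean of -0.16 and -0.11. Over the 37 genes that median was -0.17 and -0.29. Their 3 prime to 5 prime control ratios, 1.32 and 1.10 on the log2 scale, were the lowest of the 15 dogs. The part of these array-wide traits was not tested. Dog 190030 also had the lowest summed level of the cycling markers, 9.79, but dog 173175 had 11.7, inside the range of its cohort. Dog 184844 had 12.3, below the highest of its cohort (12.6). Whether that marker level has a part in the result was not tested.

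Averaged over genes the cohorts were close. The median over the 37 genes of a dog's signal relative to the mean of all 15 dogs ran from -0.24 to 0.33 in the DFI < 100 cohort and from -0.29 to 0.29 in the DFI > 300 cohort. Means of those values were 0.05 ± 0.21 and -0.03 ± 0.22 (SD, n = 8 and 7).

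**Figure D3:**
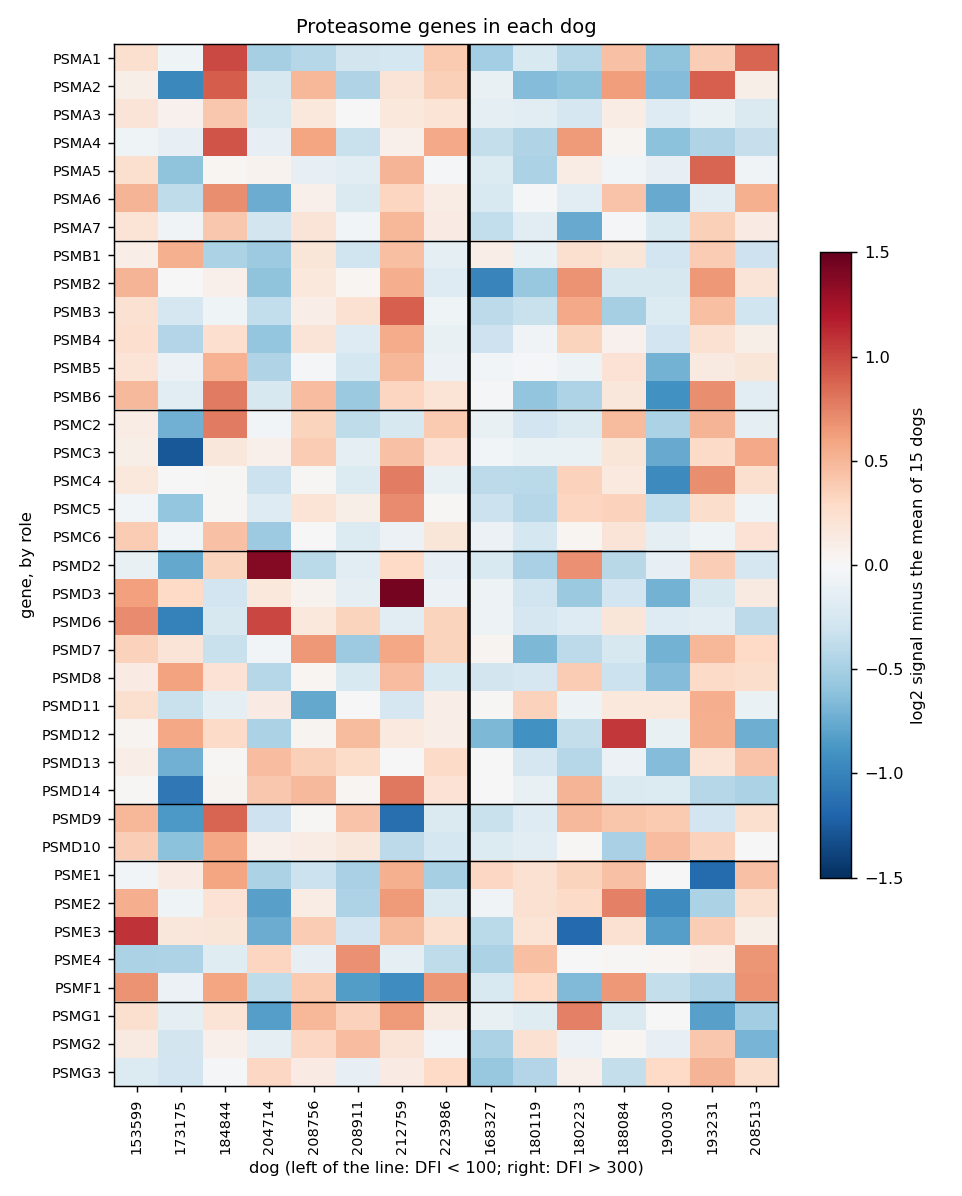
Log2 signal of each of the 37 subunit and chaperone genes above the reporter level, minus the mean of the 15 dogs, with genes in rows by role and dogs in columns, DFI < 100 left of the heavy line and DFI > 300 right of it. Red is above and blue below the gene's mean, and dog 184844 is red over most of the alpha ring, where it was highest for 5 of 7 genes.

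Across the dogs, the core genes tended to move together. The median Pearson r over all 666 pairs of the 37 genes was 0.23, and 0.22 after the cohort means were subtracted. It was 0.43 for the 78 pairs within the core, of which 74 lay above 0, and 0.24 for the 91 pairs within the cap. Pairs of 1 core and 1 cap gene had a median of 0.32 over 182 pairs. Over all pairs of genes above the reporter level the median was 0.01. These are descriptions over 15 arrays that share the array normalization, and the pairs are not independent. By gene, the median r with the other members ran from -0.11 for PSMD11 and for PSME4 to 0.42 for PSMB5 and PSMB6.

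Partners that share a ring or complex were compared in 5 pairs, with p adjusted over the 5. The permutation test compares r with 0, while the median r was already 0.43 within the core and 0.24 within the cap. It cannot show whether partners move together more than other pairs do. The catalytic genes PSMB5 and PSMB6 had r = 0.75 (permutation p = 0.00108, adjusted 0.00312) and rho = 0.67 (permutation p = 0.00796, adjusted 0.0133), and r = 0.54 without the 2 dogs farthest from the median of PSMB5. Within the cohorts r was 0.80 over 8 DFI < 100 dogs and 0.73 over 7 DFI > 300 dogs. PSMC4 and PSMC5, neighbouring ATPases, had r = 0.75 (permutation p = 0.00125, adjusted 0.00312) and rho = 0.72 (permutation p = 0.00355, adjusted 0.012), with r = 0.63 without the 2 farthest dogs. Their within-cohort r was 0.69 and 0.84. The interferon inducible pair PSME1 and PSME2 had r = 0.64 (permutation p = 0.00986, adjusted 0.0164) and rho = 0.70 (permutation p = 0.0048, adjusted 0.012), with r = 0.65 without the 2 farthest dogs, and 0.72 and 0.59 within the cohorts.

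The other pairs did not pass. PSMD11 and PSMD12, lid subunits, had r = -0.05 (permutation p = 0.863, adjusted 0.863) and rho = -0.08 (permutation p = 0.775, adjusted 0.775). The core chaperones PSMG1 and PSMG2 had r = 0.28 (permutation p = 0.305, adjusted 0.382) and rho = 0.34 (permutation p = 0.215, adjusted 0.268). Their r was 0.60 without the 2 farthest dogs, and 0.71 in the DFI < 100 cohort against -0.13 in the DFI > 300 cohort, so the value of this pair rests on few dogs.

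**Figure D4:**
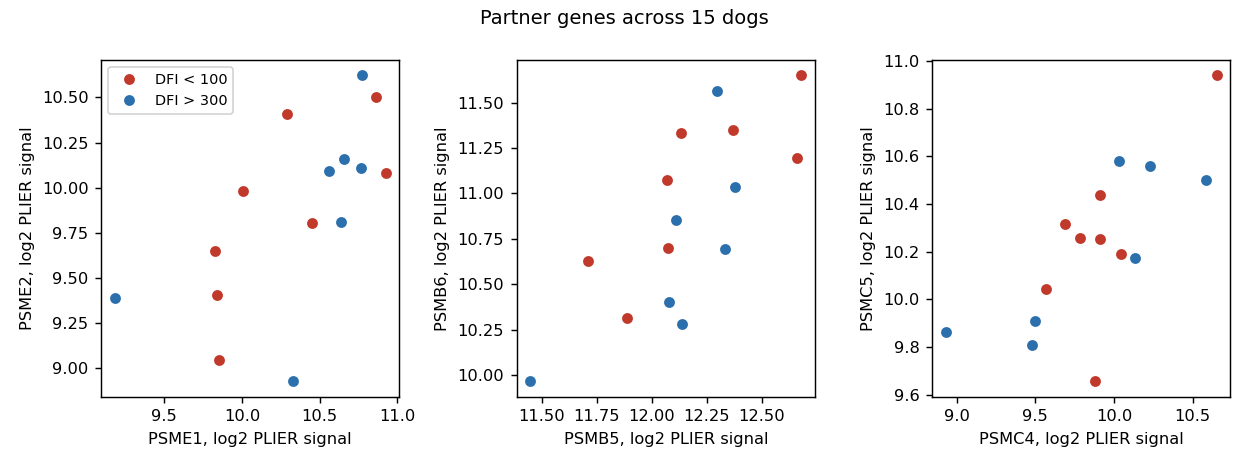
Log2 signal of 3 partner pairs across the 15 dogs, with DFI < 100 in red and DFI > 300 in blue. In each panel the genes rise together, with r = 0.64 for PSME1 and PSME2 at the left, 0.75 for PSMB5 and PSMB6 in the middle and 0.75 for PSMC4 and PSMC5 at the right.

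The high values of PSMD2 and PSMD3 in single dogs were set beside those of neighbouring genes, a look that was chosen after the values were seen. Gene order came from the RefSeq annotation of the UU_Cfam_GSD_1.0 assembly, and the 10 nearest genes above the reporter level on each side were taken. PSMD2 in dog 204714 was 2.84-fold over the median of the 15 dogs, and the same dog was highest for 16 of the 20 neighbours, beside 4.84% of all genes. POLR2H, a subunit of RNA polymerases, stood at 11.84 in that dog against 10.43 in the next highest dog. ABCF3 stood at 9.87 against 8.10, and RFC4, a DNA replication clamp loader, at 11.77 against 10.90. Beyond these 20, dog 204714 was highest for 5 of the 30 genes farther out on the one side and for 0 of 25 on the other.

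PSMD3 in dog 212759 was 2.88-fold over the median, and the dog was highest for 9 of its 20 neighbours, beside 6.64% of all genes. These included MED24 and MED1, subunits of the Mediator complex, with 8.85 and 10.93 in that dog against 8.31 and 10.32 in the next highest, and TOP2A, also one of the cycling markers, with 12.13 against 11.97. PSMB3, on the same chromosome with 11 measured genes between them, was also highest in this dog, with 11 of 20 neighbours highest there. All neighbours of PSMB3 lie within the stretch counted around PSMD3, near or farther out, so this is not a separate observation. PSMC3IP and NFE2L1, highest in this dog as well, lie in the same stretch. Farther out, dog 212759 was highest for 10 of 30 genes on the one side and 11 of 30 on the other. Among the other members, the highest dog was also highest for 9 of 20 neighbours of PSMB6 and for 7 of 20 of PSMA4, PSMA6 and PSMC6 (dog 184844) and of PSMB2 (dog 180223), and for 6 or fewer otherwise.

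**Figure D5:**
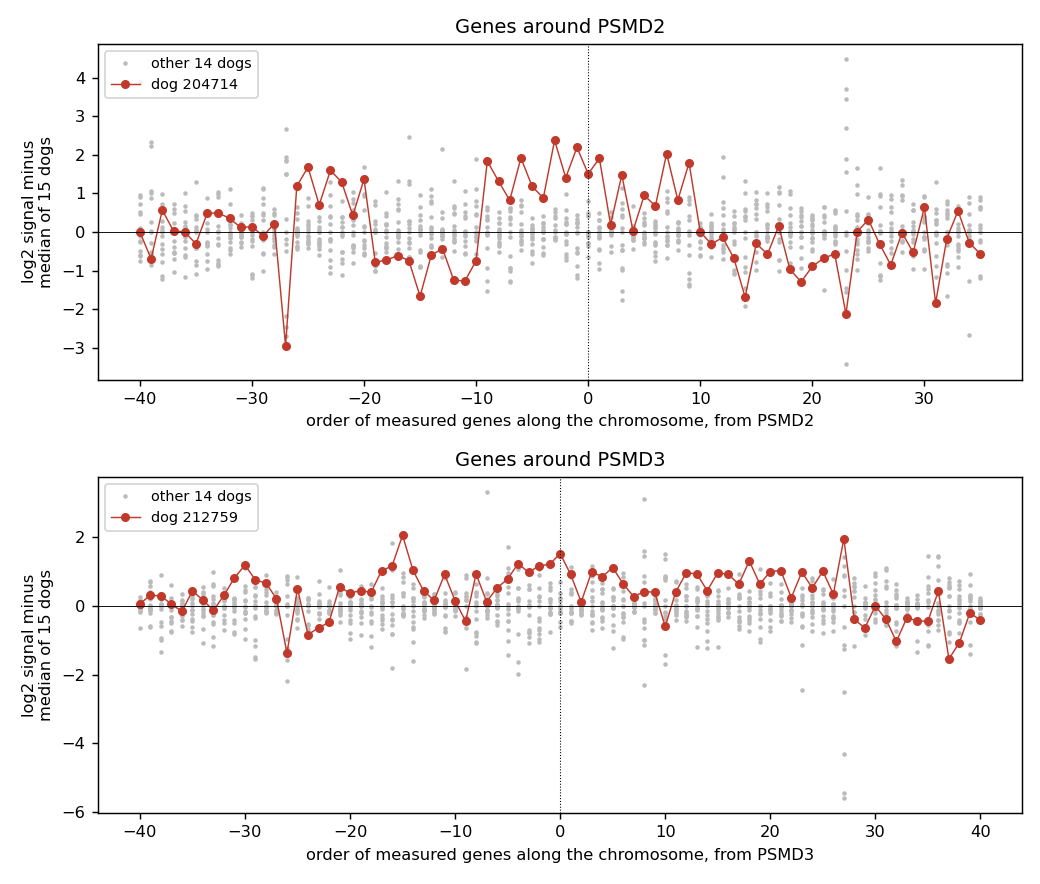
Log2 signal minus the median of the 15 dogs, for measured genes above the reporter level in their order along the chromosome around PSMD2 (top) and PSMD3 (bottom). The red line is dog 204714 (top) or dog 212759 (bottom) and the grey points are the other 14 dogs, and dog 204714 lies above all others for 16 of the 20 genes nearest PSMD2.

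The remaining genes of the route were given from a list of 26 genes, searched under 29 symbols because 3 have an older name, and including the immunoproteasome. Of these genes 20 were measured and 18 lay above the reporter level. Of the 20, 12 averaged higher in the DFI < 100 cohort and 8 a lower one, with a median of 0.13 and none past an unadjusted p of 0.05. NFE2L1, the transcription factor that drives proteasome genes when the proteasome is blocked, averaged 9.11 ± 0.54 in the DFI < 100 cohort and 9.50 ± 0.55 in the DFI > 300 cohort, a difference of -0.38 ± 0.28 (SE) and a limma p of 0.187. UCHL5, a deubiquitinase bound to the cap, averaged 10.61 ± 0.45 and 10.04 ± 0.67, a difference of 0.57 ± 0.28 (SE) with a limma p of 0.0636. It was named after its value was seen. POMP, the chaperone that completes the core, was not measured here.

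The immunoproteasome subunits replace the catalytic subunits under interferon. PSMB8 averaged 8.05 ± 0.89 in the DFI < 100 cohort and 7.91 ± 1.30 in the DFI > 300 cohort, PSMB9 9.30 ± 0.91 and 9.66 ± 1.08, and PSMB10 7.65 ± 0.53 and 7.44 ± 0.73. The differences were 0.14, -0.36 and 0.21, and none passed the test. All 3 were highest in dog 188084 of the DFI > 300 cohort, the dog with the poorly differentiated tumor, where PSME2 was highest too. Their standard deviations over the 15 dogs were 1.06, 0.97 and 0.62, against 0.32 for PSMB5 and 0.50 for PSMB6. The median over all named genes above the reporter level was 0.50. These spreads belong to unlike signal levels, with means of 7.98, 9.46 and 7.55 against 12.16 and 10.87. The lowest values of PSMB8 and PSMB10, 6.44 and 6.49, lay below the reporter level.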

How the data were processed

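The label of each sample gave the cohort of its array (15 arrays), and subtype was taken from the description of the study population by dog number. The authors selected RNA by integrity, hybridised in 2 batches, removed 1 sample after pathologist review and summarised the probes with PLIER in Affymetrix Expression Console (no version given). They also processed the arrays with RMA and reported that the algorithms gave different results. Only PLIER values were used here. The deposited values are linear PLIER intensities, 1 per probeset and array. How probes were normalized ahead of PLIER, and which array belonged to which batch, is not given in the sources used here, which leaves no within-batch values. The precision is limited by the number of arrays.

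Controls (175 of 43035 probesets) were left out and log2 taken with no offset. The test was that of limma 3.58.1 under R 4.3.3 (moderated test, 2-sided, Benjamini-Hochberg over 42860 probesets). Partner genes were compared by 2-sided permutation tests with 100000 resamples in numpy 2.4.6, with ranks from scipy 1.17.1. The cohorts' samples are separate dogs, 1 array each. Symbols came from GEO's platform annotation, where 29254 probesets have 1 symbol, 439 several and 13167 none.

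The members and lists were chosen with earlier results of these data known. Given in full were the 8 members of smallest p, the catalytic genes, the brightest and dimmest member, PSME1 and PSME2. Also named were members near the reporter level, with probesets of opposite sign or with the largest spread, and chosen pathway genes. The alternatives tried included the methods' t-test, a limma fit with trend and robust variances, 16 added before log2, quantile normalization, a filter at the reporter level, age or the 3 prime to 5 prime ratio as a covariate, array weights, no Greyhounds, osteoblastic tumors only, the mean of a gene's probesets, and each dog left out. Steps were tested on simulated data.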

Additional observations from a re-analysis of the deposited data

Results flagged for a closer look

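Among 82 sets of values (41 genes in each cohort), 10 had a dog whose gap to the next was large for the range of its cohort by Dixon's criterion, and chance alone flags about 5% of sets. Dog 173175 was the low extreme of the DFI < 100 cohort for 3 cap genes, PSMC3 at 9.36 (next 10.49), PSMD13 at 8.76 (next 9.48) and the deubiquitinase gene PSMD14 at 9.99 (next 11.09). In the same cohort PSMC4 was highest in dog 212759 at 10.66 (next 10.05), and PSME3IP1 was highest in dog 184844 at 8.92 (next 8.16).

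In the DFI > 300 cohort, PSMB5 was lowest in dog 190030 at 11.45 (next 12.08) and PSME1 lowest in dog 193231 at 9.18 (next 10.33). PSMA3 was highest in dog 188084 at 12.41 (next 12.20). The testis subunit PSMA8, not above the reporter level, had an extreme low value in each cohort, -7.00 in dog 208911 of the DFI < 100 cohort and -6.62 in dog 180223 of the DFI > 300 cohort.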

How the results depend on the processing

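Of 311 alternative values of the counts and medians, 295 stayed close to the reported ones. Close meant within a set fold for a count. For a median it meant a move smaller than the SD between dogs of the list's mean signal. A median near 0 could thus change sign and still count as close. Of 362 values for single genes, 343 kept their sign and their side of an adjusted p of 0.05. No member came near that adjusted p, so this share reflects mainly the sign. The count of proteasome genes past an unadjusted p of 0.05, 2 as reported, was 1 among probesets above the reporter level, 1 without Greyhounds, 0 with a gene's probesets averaged and 3 in osteoblastic tumors only, and ranged from 0 (without dog 153599 or 190030) to 4 (without dog 173175) with each dog left out. Without Greyhounds, 2 probesets of the whole array passed the adjusted p of 0.05 in limma. With age as a covariate, the median of the core assembly chaperones was 0.43 the median of all members 0.15 and the difference of PSMB5 -0.00628. PSME2 turned positive with quantile normalization (0.00731), without Greyhounds (0.19) and in osteoblastic tumors (0.26). PSMD2 was -0.20 without Greyhounds and -0.12 in osteoblastic tumors, where PSME1 was 0.0605, PSMA8 1.17 and the median of activators and inhibitor 0.25. With each dog left out, the ranges were -0.17 to 0.11 for PSME2, -0.0691 to 0.25 for PSMD2, -0.0255 to 0.15 for PSMB5 and -1.43 to 0.72 for PSMA8, and the median of the base assembly chaperones reached 0.01 without dog 212759. The causes were not tested. No paired analysis was possible because the cohorts hold different dogs and share no replicate numbers. With 8 and 7 arrays, the standard errors of single genes above the reporter level were 0.11 to 0.37.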
